A study of Mus musculus with 15 samples.

Results

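The T and NK cell markers described here are 38 genes chosen by name, for their place in the T cell receptor complex, in T cell signalling and lineage control, or in the cytotoxic and receptor machinery of natural killer (NK) cells. All 38 were found among the 21013 gene symbols counted in mouse submandibular gland, a salivary gland. Bulk RNA was measured in 15 libraries, 3 in each of 5 groups. The glands came from male, wildtype C57BL/6 mice aged 8 to 10 weeks. The nontreated glands (NT) were not irradiated. The IR_4d and IR_30d glands received 15 Gy at the gland region and were collected at day 4 or day 30. The IR_iEV_4d and IR_iEV_30d glands received that dose too, were given iEVs into the gland weekly from day 1, and were collected at day 4 or day 30. The term iEV is not spelled out in the labels, and the series title speaks of extracellular vesicles of mesenchymal stem cells. No group was injected with vehicle alone and none received iEVs without irradiation, so iEVs and injection cannot be told apart. The collection day of the nontreated glands is not given, so time since the start of the study and irradiation cannot be told apart in comparisons with them. Whether each sample is its own mouse is not given either, so p-values measure only the spread between the samples at hand, and that spread may be technical.

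T cells recognise antigen through the T cell receptor, whose chains (Trac, Trbc2) signal through the CD3 chains (Cd3d, Cd3e, Cd3g, Cd247) to the kinases Lck and Zap70 and the adaptor Lat. NK cells carry no such receptor. They read activating and inhibitory receptors such as NKG2D (Klrk1), NKp46 (Ncr1), NK1.1 (Klrb1c) and CD94 (Klrd1), depend on interleukin 15 signalling through Il2rb, and kill, as cytotoxic T cells do, with perforin (Prf1) and granzymes. Salivary glands of mice are known to house tissue-resident NK and T cells, and lymphocytes are among the most radiation-sensitive cells of the body. Many of the genes are shared between the lineages: Lck, Zap70, Skap1, Cd2, Cd27, Il2rb, Eomes, Tbx21, the granzymes and Nkg7 are used by both T and NK cells, and Gata3 and Bcl11b are also made by epithelia. In bulk tissue, fewer cells of a type and less RNA per cell cannot be told apart.

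All the genes were scarce. Over the 15 libraries together, with 29082798 to 52201098 gene counts each, Il2rb had 2532 counts, Klrk1 628, Gzmb 627, Klrb1c 597, Cd28 566, Nkg7 560 and Eomes 471. The genes that define T cells were far scarcer: Cd3e had 79 counts in all, Cd3g 72, Trac 64, Trbc2 60, Cd8a 56, Cd8b1 22, Themis 12 and Cd3d 10. Gzmk had 8 counts and was at 0 in 12 libraries. A low-count filter left 27 of the 38 genes for testing. The 11 that it removed were Cd3d, Cd3e, Cd3g, Trbc2, Cd8a, Cd8b1, Themis, Cd5, Cd6, Icos and Gzmk, which include most of the T cell receptor complex. A scarce gene passes the filter through the libraries in which it is high, so the counts of tested genes given here describe those 27 and support nothing about the 38. Trac passed only through its IR_iEV_30d libraries. Lat would not have passed without its IR_iEV_30d libraries, and Skap1 would not have passed without its IR_30d libraries.

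Per length of exon, the nontreated gland ranked Il2rb, the cytotoxic genes Nkg7 and Gzmb, Xcl1 and the 4 NK receptor genes first. In RPKM, reads scaled to exon length and library size (mean ± SD, n = 3), Il2rb stood at 1.33 ± 0.298, Nkg7, a membrane protein of cytotoxic granules, at 1.27 ± 0.292, Gzmb at 0.962 ± 0.231, Xcl1 at 0.587 ± 0.450, Klrb1c at 0.525 ± 0.248, Klrd1 at 0.522 ± 0.150, Ncr1 at 0.454 ± 0.0860 and Klrk1 at 0.452 ± 0.0382. Il2rb and Nkg7 lay within their SDs of each other, as did the 4 NK receptor genes. Lck followed at 0.385 ± 0.0296 and Cd2 at 0.334 ± 0.115. The cytotoxic genes Gzma and Prf1 stood below these means, at 0.323 ± 0.186 and 0.276 ± 0.0195. Cd4 stood at 0.160 ± 0.105, Trbc2 at 0.0793 ± 0.0754, Cd3e at 0.0645 ± 0.0139, Trac at 0.0612 ± 0.0708 and Cd8a at 0.00197 ± 0.00341. The set in the nontreated gland was therefore led by Il2rb, Nkg7, Gzmb and Xcl1, which T cells use too, and by the NK receptor genes. These levels do not tell which cells carried any of these genes, the NK receptor genes included. The CD3 chains, the receptor constant regions and CD8 were at or near 0. In that group Gzmk had 0 counts, which allows up to 0.0248 CPM by counting error alone, where CPM is the count divided by the library's TMM-adjusted size.

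**Figure D1:**
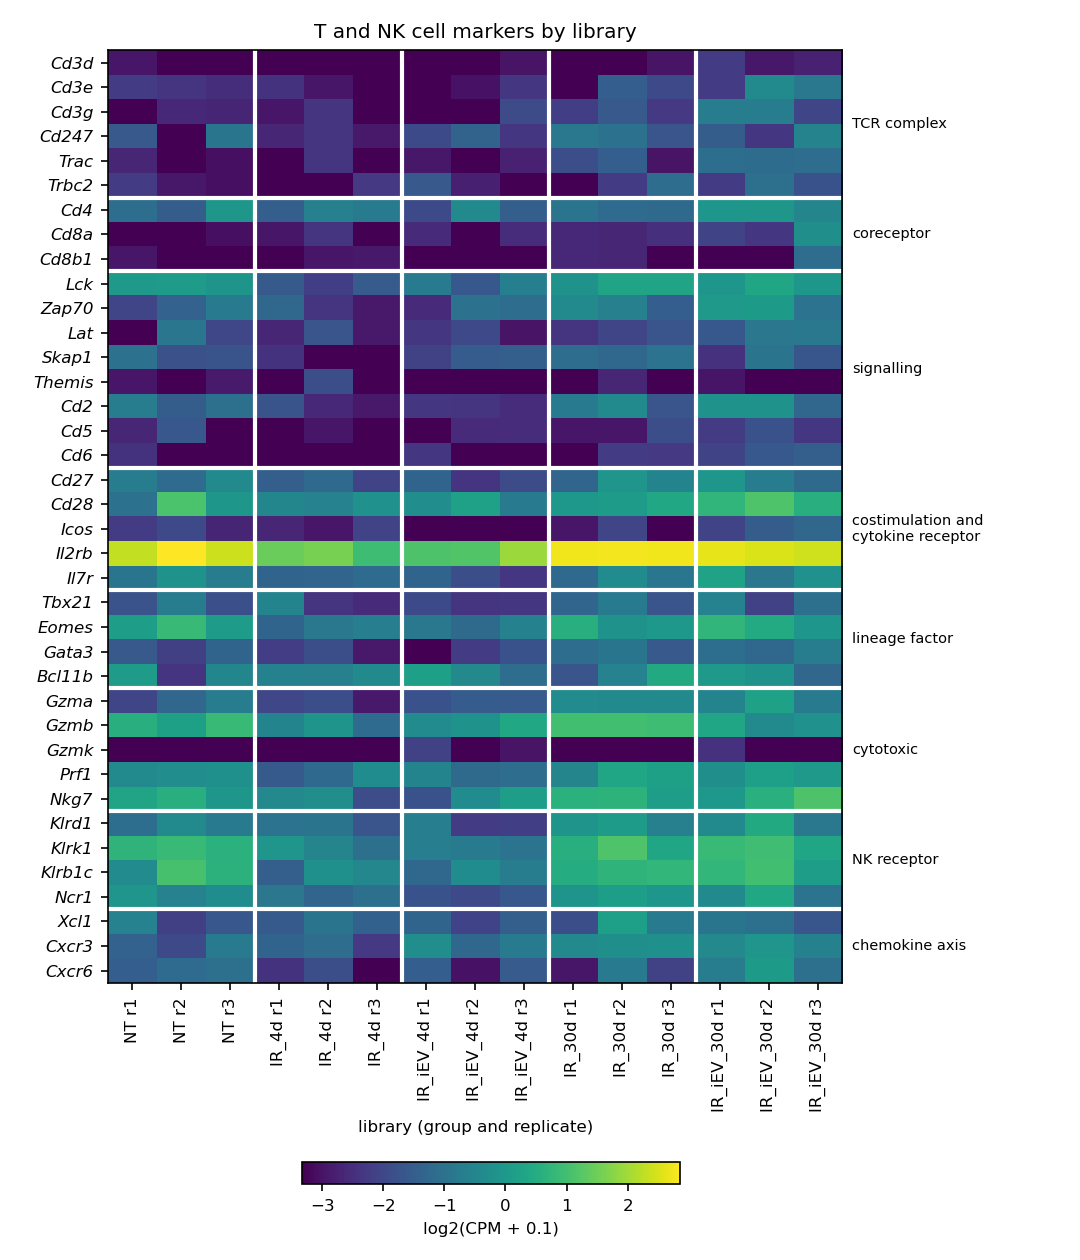
Levels of the 38 genes (rows, grouped by role) in the 15 libraries (columns), on the scale log2(CPM + 0.1), with white lines between groups and roles. The IR_4d and IR_iEV_4d columns are darker than the others in most rows of the signalling, cytotoxic and NK receptor groups, and Cd3e, Cd3g, Trac and Cd8a reach their highest levels in IR_iEV_30d libraries.

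The libraries differed in tissue content, in part within groups and in part between them. In 6 of them the mean level of 6 sublingual gland markers exceeded 2 on the log2 CPM scale: NT replicate 1, IR_4d replicates 1 and 2, IR_iEV_4d replicates 2 and 3, and IR_iEV_30d replicate 2, with means from 4.89 to 7.50. The other 9 ranged from -1.48 to 1.36. IR_iEV_4d replicate 2 also had the highest means of the adipose (5.40) and skeletal muscle (3.29) lists. The mean of a parotid gland list, with genes such as Amy1 and Bpifa2, followed the groups in part. It ran from 1.16 to 1.78 in NT, from 2.62 to 5.94 in IR_4d and from 5.03 to 6.01 in IR_iEV_4d. In IR_30d it ran from 2.21 to 4.19 and in IR_iEV_30d from 1.88 to 5.22. The part of parotid tissue in the T and NK results was not tested. The submandibular list, 10 genes such as Klk1 and Egf, averaged 9.82 to 10.82 in every library. No 2 libraries of a group differed by as little as sampling noise. Results that rest on the 6 libraries are given with and without them.

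Before the comparisons, promoter sequence is shown for 4 killing and NK receptor genes and for Lck. Each of these was called in at least 1 comparison, and its promoter was at hand. Klrb1c, Eomes and Il7r met both conditions too and are not shown. The Eomes window holds none of the letters marked below, and those of Klrb1c and Il7r hold some. Lck and Ncr1 have a second start each, not shown. Each stretch is the 250 bases before the RefSeq transcription start on GRCm38.p6, written in the direction of transcription. Capitals mark 6-base matches, on either strand, to GTGTGA (the core of T-box factors such as Eomes and Tbx21), TGTGGT (the core of Runx factors) or AGGAAG (a core of Ets factors), where adjoining matches run together.
Klrk1 (chr6:129623865-129624114, minus strand): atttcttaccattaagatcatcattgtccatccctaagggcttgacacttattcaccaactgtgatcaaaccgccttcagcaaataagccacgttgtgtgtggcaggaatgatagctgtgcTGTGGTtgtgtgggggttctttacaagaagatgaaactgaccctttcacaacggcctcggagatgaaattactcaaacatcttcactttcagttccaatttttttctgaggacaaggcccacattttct
Ncr1 (chr7:4337465-4337714, plus strand): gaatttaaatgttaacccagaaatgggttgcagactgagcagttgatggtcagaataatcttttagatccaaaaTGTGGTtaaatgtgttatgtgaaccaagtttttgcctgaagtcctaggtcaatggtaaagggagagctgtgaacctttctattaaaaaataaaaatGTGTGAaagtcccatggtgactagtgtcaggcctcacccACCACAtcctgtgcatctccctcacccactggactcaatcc
Gzmb (chr14:56262335-56262584, minus strand): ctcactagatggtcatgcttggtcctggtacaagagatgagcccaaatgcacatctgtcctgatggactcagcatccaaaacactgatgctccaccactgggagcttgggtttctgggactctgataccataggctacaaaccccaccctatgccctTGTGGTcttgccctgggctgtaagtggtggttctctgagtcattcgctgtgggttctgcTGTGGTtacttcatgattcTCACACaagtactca
Gzma (chr13:113100982-113101231, minus strand): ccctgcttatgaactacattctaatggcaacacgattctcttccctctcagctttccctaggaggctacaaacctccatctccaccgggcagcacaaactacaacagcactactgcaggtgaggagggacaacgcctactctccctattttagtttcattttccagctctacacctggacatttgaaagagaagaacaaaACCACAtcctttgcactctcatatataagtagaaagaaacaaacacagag
Lck (chr4:129558373-129558622, minus strand): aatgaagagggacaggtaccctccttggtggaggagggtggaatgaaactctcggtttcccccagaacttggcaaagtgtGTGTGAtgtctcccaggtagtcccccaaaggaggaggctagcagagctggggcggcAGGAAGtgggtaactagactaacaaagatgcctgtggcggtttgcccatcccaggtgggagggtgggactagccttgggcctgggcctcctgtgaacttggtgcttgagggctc
RefSeq start windows were at hand for 27 of the 38 genes, 32 windows in all. The T-box letters stood in 11 of the 32 (34.4%), against 12.3% of 32851 windows of the same length over all genes. The Runx letters stood in 13 of them (40.6%), against 14.05%, and the Ets letters in 16 (50.0%), against 29.5%. Windows of 1 gene overlap in part, and a match of letters is a description of the sequence only.

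At day 4 after irradiation most of the genes were lower than in nontreated glands, and 2 of the 27 tested genes passed the test, Il2rb and Lck, both lower. The comparison asks what irradiation did early. The test was edgeR's quasi-likelihood F test over 16042 genes with Benjamini-Hochberg adjustment at 0.05. It called 0.561% of all tested genes lower and 0.835% higher. At an unadjusted p under 0.05, 9 of the 27 were lower (6.15% of all genes) and 0 higher (5.4%). The log2 ratio was below 0 for 24 of the 27 (50.5% of all genes), with a median of -0.99 against -0.00 over all tested genes. In 12 of the 27 every IR_4d library lay below every NT library, as it did in 9.31% of all genes.

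Il2rb encodes the receptor chain through which interleukins 2 and 15 signal. It was at 4.78, 7.17 and 5.18 CPM in the NT libraries and at 2.63, 2.93 and 1.82 CPM in IR_4d. The groups did not overlap, and the fall was 2.31-fold (log2 ratio -1.21 ± 0.23 SE, edgeR adjusted p = 0.0103). Lck, the kinase that starts T cell receptor signalling, was at 0.917, 0.943 and 0.814 CPM in NT and at 0.236, 0.121 and 0.245 CPM in IR_4d. Its highest IR_4d library was thus below its lowest NT library, and its log2 ratio was -2.14 ± 0.45 (edgeR adjusted p = 0.0203). The next 4 genes by p were not called. Klrk1, the activating receptor NKG2D, was at 1.52, 1.70 and 1.44 CPM in NT and 0.828, 0.604 and 0.385 CPM in IR_4d (log2 ratio -1.34 ± 0.35, edgeR adjusted p = 0.0711). Eomes, the T-box factor of NK cell maturation, was at 1.00, 1.70 and 0.961 CPM against 0.296, 0.453 and 0.524 CPM (-1.52 ± 0.41, edgeR adjusted p = 0.0869). Both genes were lower in each IR_4d library than in any NT library. Gzmb, granzyme B, was at 1.40, 1.04 and 1.70 CPM against 0.591, 0.815 and 0.350 CPM (-1.23 ± 0.36, edgeR adjusted p = 0.116). Skap1, an adaptor that links the T cell receptor to integrins, had 14, 6 and 11 counts in NT and 3, 0 and 0 in IR_4d. Its summed level was 8.17 times higher in NT (95% exact counting interval 2.55 to 41.8), with an edgeR adjusted p of 0.175. The 7 tested genes not named with their values in this or the next comparisons (Zap70, Cd27, Tbx21, Gata3, Bcl11b, Prf1 and Nkg7) had log2 ratios from -1.09 to 0.06.

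**Figure D2:**
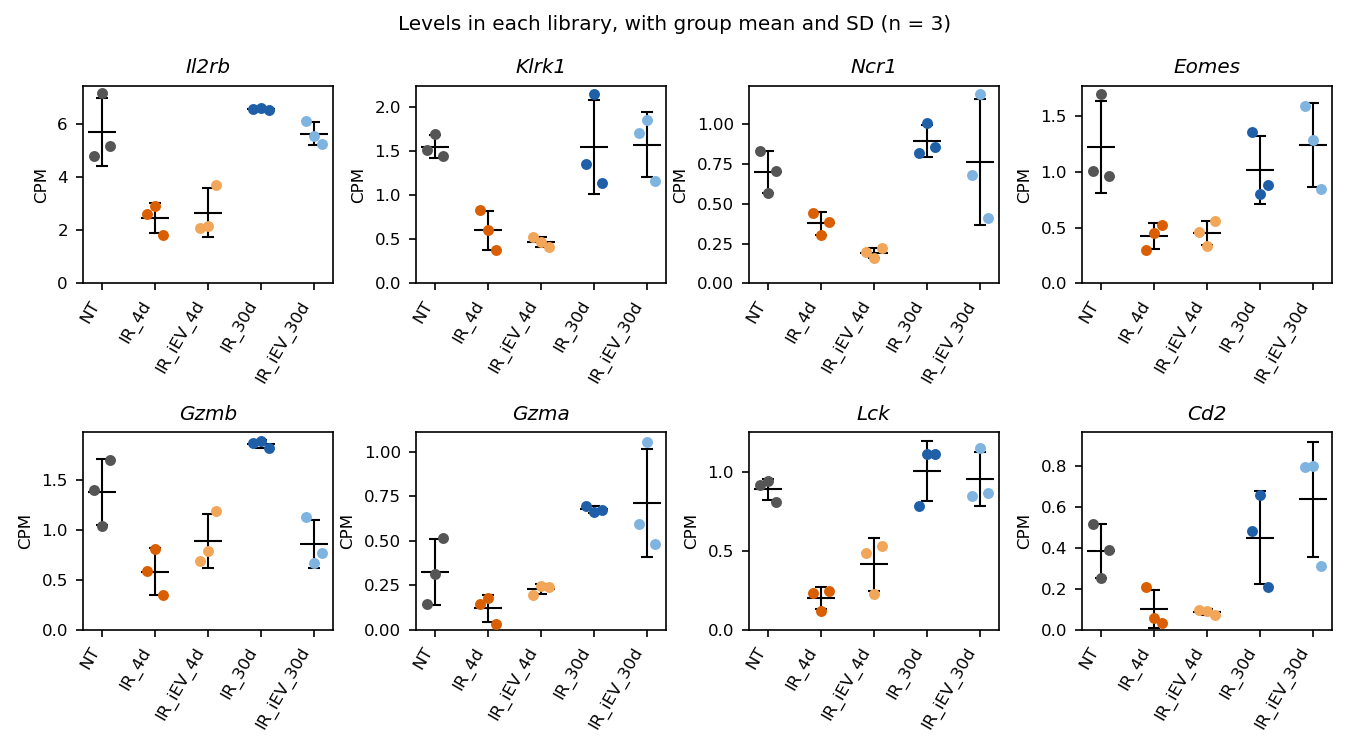
CPM of 8 genes in each library (points), with the group mean (bar) and SD (whiskers, n = 3), on linear axes that start at 0. Il2rb, Klrk1, Ncr1, Eomes and Lck sit lower in the IR_4d and IR_iEV_4d libraries than in every NT library, and Gzmb is at 1.82 to 1.89 CPM in IR_30d and at 0.673 to 1.14 CPM in IR_iEV_30d.

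The calls at day 4 depended on single libraries. That of Il2rb was lost without IR_4d replicate 3 (adjusted p = 0.0693), without NT replicate 2 (0.0629) and with covariates for sublingual and adipose levels (0.0910), and it held without the 6 libraries high in sublingual markers (log2 ratio -1.77, adjusted p = 0.0118), though that fit has 1 IR_4d library, assumed to vary like the other groups. That of Lck was lost without IR_4d replicate 1, 2 or 3 or NT replicate 2 or 3 (0.0539 to 0.115), with limma-voom (0.0574), with the 2 groups fitted alone (0.0757), with the covariates (0.162) and without the 6 libraries (0.397, log2 ratio -1.84).

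Summed over their roles, the cytotoxic and NK receptor genes were lower in every IR_4d library than in any NT library. The 4 NK receptor genes together were at 4.14 ± 0.748 CPM (SD, n = 3) in NT and 1.88 ± 0.245 CPM in IR_4d. The 5 cytotoxic genes were at 3.54 ± 0.271 and 1.65 ± 0.398 CPM. The 8 signalling genes were at 2.18 ± 0.131 and 0.653 ± 0.286 CPM. The 6 genes of the T cell receptor complex had 19, 6 and 32 counts in NT and 6, 10 and 4 in IR_4d, so these groups overlapped. Coreceptor counts, mostly Cd4, which macrophages and dendritic cells may also carry, overlapped too, at 8 to 48 in NT and 10 to 22 in IR_4d. All 38 genes summed to 22.1 ± 2.56 CPM in NT and 10.7 ± 1.74 CPM in IR_4d.

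**Figure D3:**
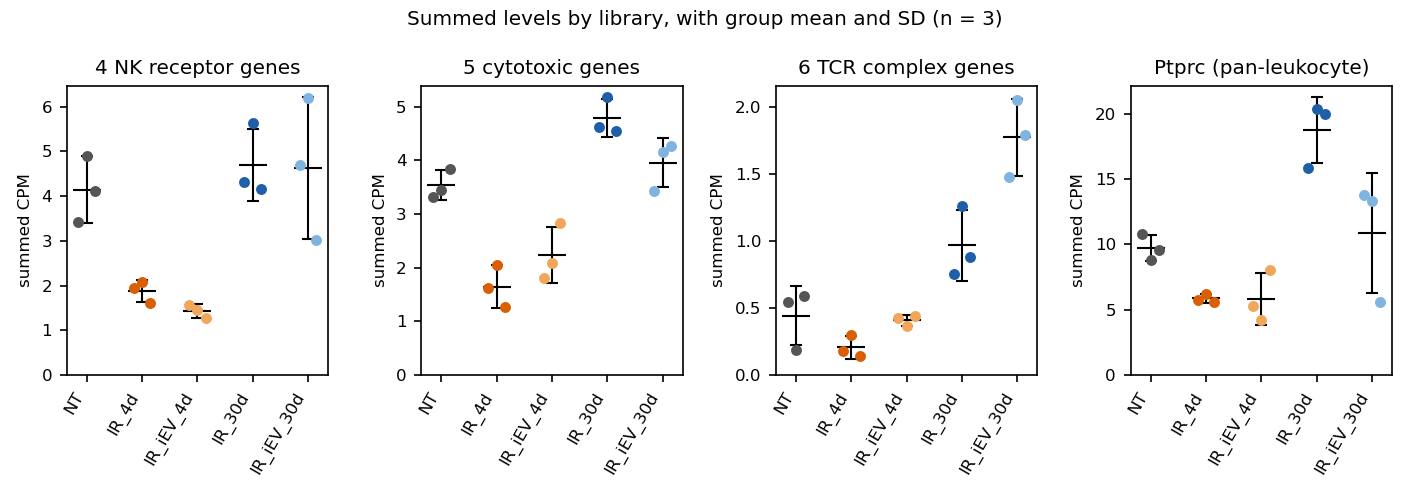
Summed CPM of the 4 NK receptor genes, the 5 cytotoxic genes and the 6 T cell receptor complex genes, and the CPM of the pan-leukocyte gene Ptprc, in each library (points) with group mean (bar) and SD (whiskers, n = 3). NK receptor levels are lowest in both day 4 groups (1.88 and 1.43 CPM on average), and T cell receptor complex levels are highest in IR_iEV_30d (1.77 CPM).

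At day 30 after irradiation none of the 27 genes differed from the nontreated gland past the threshold, in either direction. This comparison asks what irradiation left at the later day, and edgeR called 3.19% of all genes higher and 1.29% lower in it. DESeq2 and limma-voom called 0 of the genes too. At an unadjusted p under 0.05, 2 of the 27 were higher (9.37% of all genes) and 0 lower (6.95%). The log2 ratio was below 0 for 7 of the 27 (50.5% of all genes). In 3 of them, Gzma, Gzmb and Cxcr3, every IR_30d library lay above every NT library, as in 12.6% of all genes. The 2 with an unadjusted p under 0.05 were Cxcr3 and Trac. Cxcr3, the receptor for the interferon-induced chemokines Cxcl9 and Cxcl10, was at 0.286, 0.157 and 0.481 CPM in NT and 0.664, 0.746 and 0.753 CPM in IR_30d, without overlap (log2 ratio 1.18 ± 0.52, edgeR adjusted p = 0.254). Trac, the constant region of the receptor's alpha chain, had 2, 0 and 1 counts in NT and 6, 9 and 1 in IR_30d, with overlap. Its summed level was 6.05 times higher in IR_30d (95% exact counting interval 1.73 to 32.4), with an edgeR adjusted p of 0.299.

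Next by p were Gzma, Xcl1, Gzmb and Klrd1, with log2 ratios of 1.02 ± 0.54, 0.89 ± 0.65, 0.42 ± 0.34 and 0.61 ± 0.56 and edgeR adjusted p values of 0.381, 0.586, 0.624 and 0.692. Gzma, granzyme A, was at 0.143, 0.314 and 0.518 CPM in NT and 0.695, 0.660 and 0.675 CPM in IR_30d. Gzmb was at 1.87, 1.89 and 1.82 CPM in IR_30d. For both granzymes each IR_30d library was above each NT library, with less spread within IR_30d than within NT. Xcl1, a chemokine that activated NK and CD8 T cells release to draw dendritic cells, was at 0.573, 0.126 and 0.222 CPM in NT and 0.181, 1.03 and 0.493 CPM in IR_30d, with overlap. Klrd1, which pairs with NKG2 receptors, was at 0.372, 0.660 and 0.481 CPM against 0.816, 0.946 and 0.545 CPM, also with overlap. The log2 ratio of Il2rb was 0.20 (95% interval -0.29 to 0.70) and that of Klrk1 -0.00 (-0.73 to 0.73). Zap70, Cd27, Tbx21, Gata3, Bcl11b, Prf1 and Nkg7 ran from 0.17 to 0.65. The lowest ratios were those of Cxcr6 (-0.61), Cd4 (-0.47) and Lat (-0.35), none of them called.

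Of the 27 genes, 6 were higher at day 30 after irradiation than at day 4 and passed the test: Lck, Skap1, Il2rb, Gzma, Gzmb and Klrk1. Called higher among all genes were 4.81%, and 0 of the 27 were lower (1.99%). Skap1 would not have passed the low-count filter without its IR_30d libraries, so its place in these counts supports nothing. The nontreated glands drop out of this contrast, because the same glands serve both days. Their collection day is not given, so time alone and a changing irradiation effect cannot be told apart here. The median log2 ratio of the 27 was 1.33, against -0.01 over all tested genes, and only Cd4 was below 0 (52.1% of all genes). At an unadjusted p under 0.05, 15 of the 27 were higher (11.1% of all genes) and 0 lower (8.69%). Every IR_30d library lay above every IR_4d library in 16 of the 27, as it did in 16.4% of all genes.

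Il2rb was at 6.55, 6.60 and 6.54 CPM in IR_30d, and its log2 ratio to IR_4d was 1.41 ± 0.23 (edgeR adjusted p = 0.00126). It stayed past the threshold in all 16 alternative settings run for this contrast. Lck was at 0.785, 1.12 and 1.12 CPM in IR_30d (log2 ratio 2.32 ± 0.45, edgeR adjusted p = 0.00422), and Gzmb rose by a log2 ratio of 1.65 ± 0.36 (edgeR adjusted p = 0.00914). In all 3 genes the lowest IR_30d library was more than the highest IR_4d library. Gzma, at 0.148, 0.181 and 0.0350 CPM in IR_4d, rose by 2.42 ± 0.61 (edgeR adjusted p = 0.0225). Klrk1, at 1.36, 2.15 and 1.14 CPM in IR_30d, rose by 1.34 ± 0.35 (edgeR adjusted p = 0.0255). Skap1, with 12, 11 and 16 counts in IR_30d, was 11.7 times higher in summed level (95% exact counting interval 3.71 to 59.0, edgeR adjusted p = 0.0352). The groups did not overlap in these genes either. The calls of Lck and Gzmb were lost without the 6 libraries high in sublingual markers (adjusted p = 0.185 and 0.0547), which leaves 1 IR_4d library. Those of Gzma and Klrk1 were lost in that setting (0.0972 and 0.131) and with the covariates (0.0703 and 0.0541), that of Klrk1 with limma-voom (0.0571), Gzma's without any single IR_30d or IR_4d library (0.0520 to 0.0975), Klrk1's without IR_30d replicate 2 or IR_4d replicate 2 or 3 (0.0967 to 0.145), and Skap1's without the 6 libraries (0.206), without any IR_30d library or IR_4d replicate 2 or 3 (0.0717 to 0.157) and with a replicate block (0.0599).

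**Figure D4:**
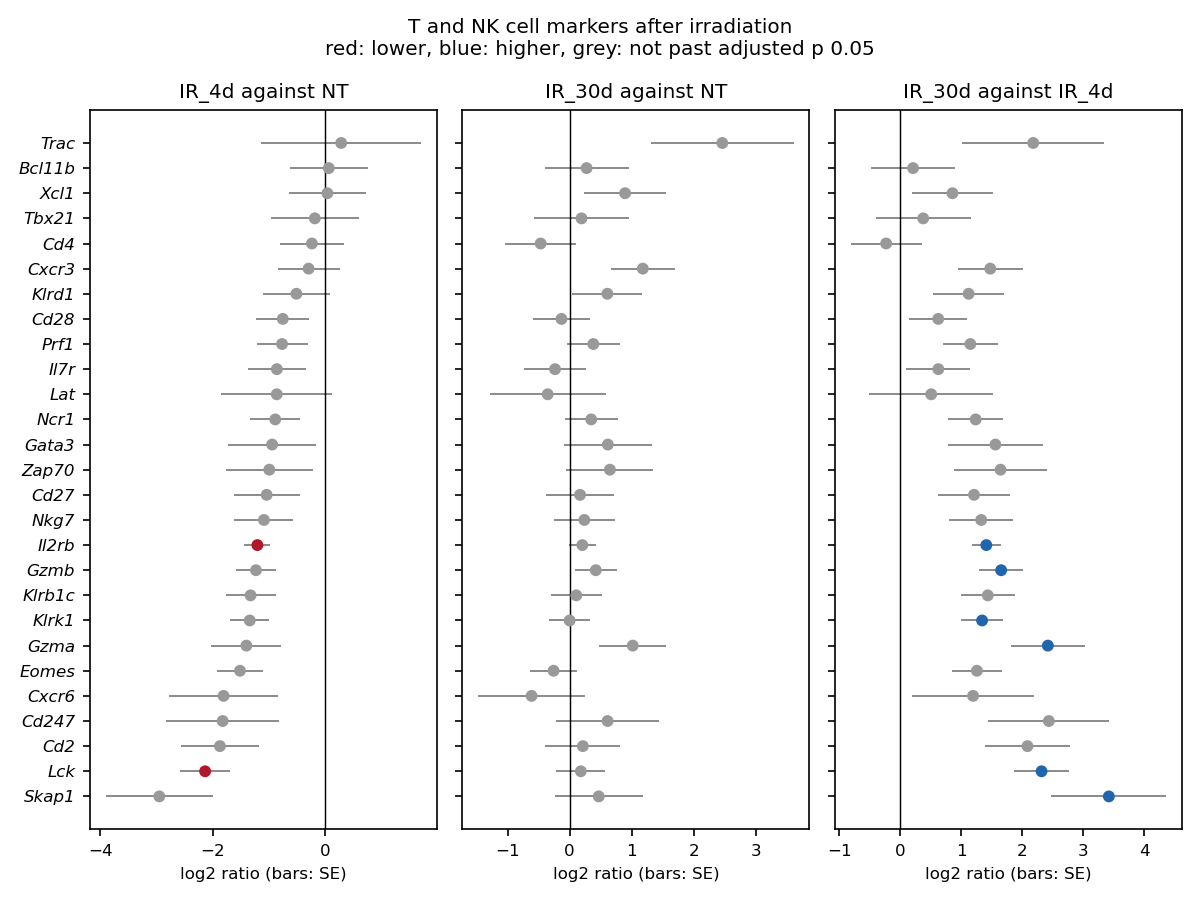
Log2 ratios of the 27 tested genes in IR_4d against NT, IR_30d against NT and IR_30d against IR_4d, with bars for the SE, red for genes called lower and blue for genes called higher at adjusted p 0.05. Points lie mostly left of 0 at day 4, on both sides of 0 at day 30, and, except Cd4, right of 0 between the days. NT is shared by the left and middle panels and IR_4d by the left and right.

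With iEVs at day 4, 0 of the 27 genes passed the test against the irradiated glands of that day. The comparison asks whether iEVs altered the early state. Over all genes 0.0312% were called higher and 0% lower, and DESeq2 and limma-voom called 0 of the 27 too. DESeq2 gave no adjusted p for 7 of the genes here, so it could not call those. Unadjusted p values under 0.05 were found for 2 of the 27 on the higher side (3.85% of all genes) and 0 on the lower side (2.97%). The median log2 ratio was 0.03, and 13 of the 27 genes were below 0 (50.8% of all genes). Lck was at 0.491, 0.226 and 0.536 CPM in IR_iEV_4d against 0.236, 0.121 and 0.245 CPM in IR_4d (log2 ratio 1.04 ± 0.46, edgeR adjusted p = 0.707), with overlap. Skap1 had 4, 11 and 11 counts against 3, 0 and 0, a summed level 7.15 times higher (95% exact counting interval 2.19 to 36.9, edgeR adjusted p = 0.633). In Ncr1, the receptor NKp46, the 3 IR_iEV_4d libraries, at 0.197, 0.158 and 0.219 CPM, lay below those of IR_4d, at 0.444, 0.302 and 0.385 CPM (-0.97 ± 0.49, edgeR adjusted p = 0.762). Such a separation downwards was found in 2 of the 27 genes, Ncr1 and Il7r (6.92% of all genes), and upwards in 3, Cd247, Skap1 and Gzma (7.31%).

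Cxcr3, Gzmb and Cd247 came next, with log2 ratios of 0.96 ± 0.54, 0.60 ± 0.36 and 1.53 ± 1.03 and edgeR adjusted p values of 0.786, 0.801 and 0.822. Cxcr3 was at 0.721, 0.316 and 0.487 CPM in IR_iEV_4d and 0.296, 0.362 and 0.105 CPM in IR_4d. Gzmb was at 0.688, 0.791 and 1.19 CPM in IR_iEV_4d, which overlaps IR_4d. Cd247, the CD3 zeta chain that NK cells use as well, had 5, 13 and 4 counts against 2, 3 and 1. Against the nontreated gland, IR_iEV_4d had 3 of the 27 genes lower (0.96% of all genes) and 0 higher (1.35%): Il2rb, Klrk1 and Ncr1. At an unadjusted p under 0.05, 9 were lower (8.17% of all genes) and 0 higher (8.45%). The ratio was below 0 for 24 of the 27 (51.6%), and in 10 every IR_iEV_4d library lay below every NT library (9.3%). Il2rb was at 2.10, 2.17 and 3.73 CPM (log2 ratio -1.09 ± 0.23, edgeR adjusted p = 0.0154). Klrk1 was at 0.524, 0.475 and 0.414 CPM, against an NT mean of 1.55 CPM (-1.72 ± 0.35, edgeR adjusted p = 0.0131). Ncr1 fell from 0.831, 0.566 and 0.703 CPM in NT (-1.86 ± 0.47, edgeR adjusted p = 0.0468). All 3 calls were lost with the 2 groups fitted alone (0.0682 to 0.156) and with the covariates (0.192 to 0.690), and only that of Il2rb held without the 6 sublingual-high libraries, a fit with 1 IR_iEV_4d library that is assumed to vary like the other groups. Klrk1's was also lost without IR_iEV_4d replicate 2 (0.0553), Il2rb's without IR_iEV_4d replicate 1 or 2 or NT replicate 2 (0.0780 to 0.0891), and Ncr1's without any 1 of the 6 libraries compared (0.0700 to 0.175), with limma-voom, with no low-count filter and with a replicate block (0.0545 to 0.0734).

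With iEVs at day 30, 0 of the 27 genes passed the test against irradiation alone. Among all genes 0.168% were called higher and 0.63% lower, and DESeq2 and limma-voom called 0 of the 27. DESeq2 gave no adjusted p for 21 of the genes here, so it could not call those. Only Gzmb had an unadjusted p under 0.05 on the lower side (7.31% of all genes), and 0 genes had one on the higher side (5.57%). Gzmb was at 1.87, 1.89 and 1.82 CPM in IR_30d and 1.14, 0.673 and 0.773 CPM in IR_iEV_30d. The groups did not overlap, as for Il2rb on the lower side (11% of all genes), and the log2 ratio was -1.11 ± 0.35 (edgeR adjusted p = 0.168). Of the 27 ratios, 11 were below 0 (51.5% of all genes). The other granzyme tested, Gzma, was at 0.597, 1.06 and 0.483 CPM in IR_iEV_30d, on both sides of its IR_30d levels (0.07 ± 0.52, edgeR adjusted p = 0.974).

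The next 5 genes by p, Cd4, Cxcr6, Cd28, Lat and Trac, had higher means with iEVs and were not called. Cd4, the helper coreceptor, was at 0.423, 0.344 and 0.338 CPM in IR_30d and 0.852, 0.865 and 0.604 CPM in IR_iEV_30d (log2 ratio 1.06 ± 0.57, edgeR adjusted p = 0.453). Cd28, the costimulatory receptor for CD80 and CD86, was at 0.876, 0.946 and 1.19 CPM against 1.59, 2.15 and 1.38 CPM (0.75 ± 0.45, edgeR adjusted p = 0.515). Lat had 3, 5 and 8 counts against 8, 14 and 19 (1.33 ± 0.90, edgeR adjusted p = 0.569), and Trac 6, 9 and 1 against 13, 11 and 15 (1.22 ± 0.87, edgeR adjusted p = 0.591). On the CPM scale these 4 genes were higher in each IR_iEV_30d library than in any IR_30d library, as were 8.68% of all genes. Of the 4, Trac passed the low-count filter only through its IR_iEV_30d libraries, and Lat would not have passed without its own. The places of Trac and Lat in this count therefore support nothing. Cxcr6, the receptor for Cxcl16 that marks resident lymphocytes, was at 0.0302, 0.487 and 0.130 CPM against 0.511, 0.929 and 0.386 CPM (1.47 ± 0.85, edgeR adjusted p = 0.494), with overlap. The log2 ratio of Klrk1 was 0.02 (95% interval -0.71 to 0.75) and that of Il2rb -0.22 (-0.71 to 0.28). For 4 of the 27 genes (Il2rb, Lck, Klrk1 and Klrb1c) the interval lay within a 2-fold change in either direction, and for the others it did not.

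Most genes of the T cell receptor complex were too scarce for the filter, and the summed count of the complex was highest in IR_iEV_30d. Its 6 genes had 52, 64 and 74 counts there, against 25, 44 and 34 in IR_30d, 19, 6 and 32 in NT, 13, 16 and 18 in IR_iEV_4d and 6, 10 and 4 in IR_4d. In CPM these are 1.77 ± 0.287 in IR_iEV_30d, 0.967 ± 0.264 in IR_30d and 0.442 ± 0.220 in NT (SD, n = 3), and the IR_iEV_30d libraries overlapped no other group. Cd3e had 4, 21 and 19 counts in IR_iEV_30d and 0, 9 and 6 in IR_30d. Cd3g had 18, 16 and 6 counts against 4, 8 and 4. The CD8 chains came from 1 library: IR_iEV_30d replicate 3 held 31 of the 56 Cd8a counts and 15 of the 22 Cd8b1 counts of the whole study, while replicates 1 and 2 had 5 and 3 Cd8a counts and 0 Cd8b1 counts. A grouping made after these values were seen set the 7 genes Cd3d, Cd3e, Cd3g, Trac, Trbc2, Cd8a and Cd8b1 against the 4 NK receptor genes. The T cell genes made up 22.5%, 24.9% and 43.4% of the joint count in IR_iEV_30d and 8.92% to 15.3% in IR_30d. The share ranged from 3.70% to 9.16% in NT, from 7.04% to 13.75% in IR_4d and from 4.48% to 24.6% in IR_iEV_4d. These shares rest on 3 to 96 T cell counts a library, and which cells carried the NK receptor genes was not tested. Fitted with no low-count filter, the 11 scarce genes gave 0 calls in the 4 comparisons of irradiation or iEVs within a day.

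**Figure D5:**
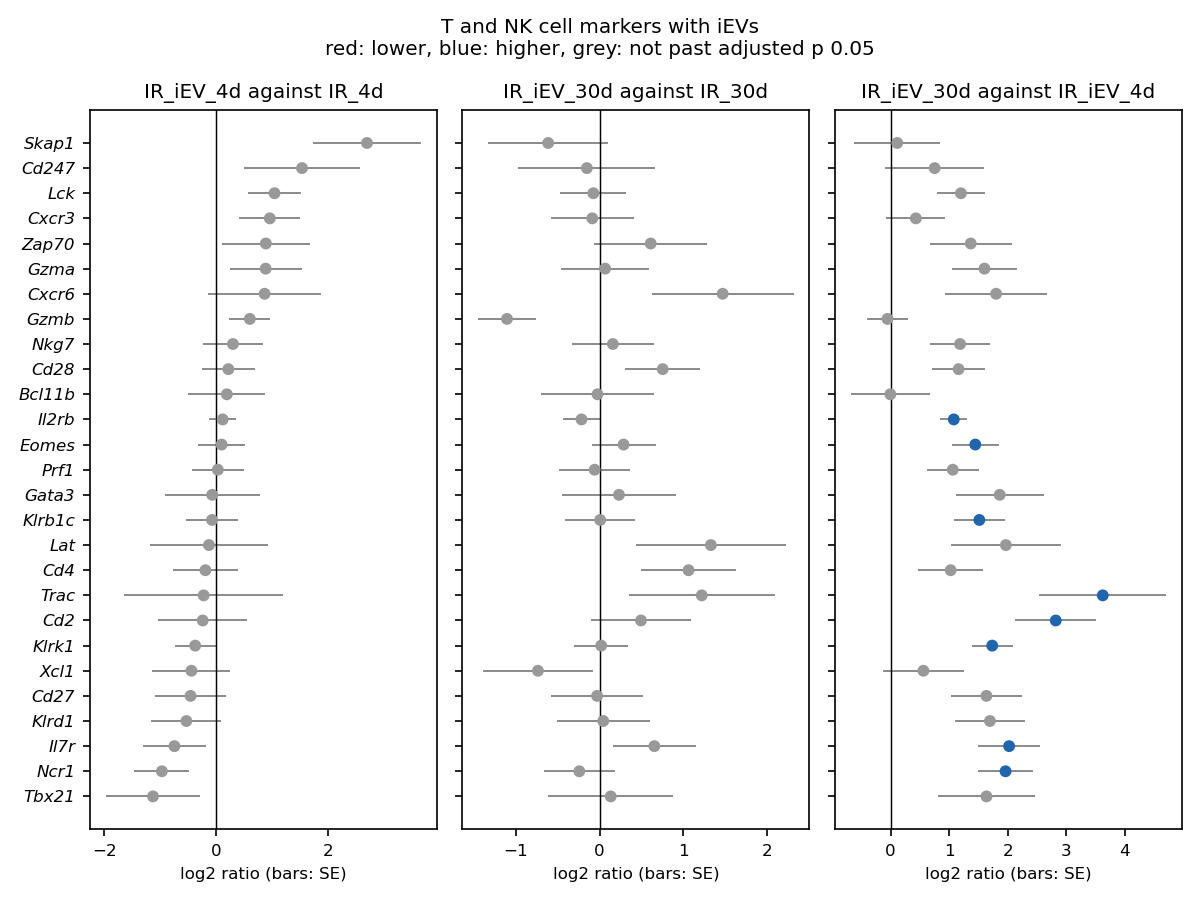
Log2 ratios of the 27 tested genes in IR_iEV_4d against IR_4d, IR_iEV_30d against IR_30d and IR_iEV_30d against IR_iEV_4d, with bars for the SE and blue for genes called higher at adjusted p 0.05. Every point of the left and middle panels is grey, and 8 points of the right panel are blue. The panels share groups pairwise.

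Among the glands given iEVs, 8 of the 27 genes were higher at day 30 than at day 4 (4.32% of all genes) and 0 lower (3.95%): Trac, Cd2, Il2rb, Il7r, Eomes, Klrk1, Klrb1c and Ncr1. Trac passed the low-count filter only through its IR_iEV_30d libraries, so its place in these counts supports nothing. At an unadjusted p under 0.05, 16 were higher (12.3% of all genes) and 0 lower (11.9%), and 2 ratios were below 0 (51.2%). In 17 of the 27 every day 30 library lay above every day 4 library (13.6%). Lat is among these 17 and would not have passed the filter without its IR_iEV_30d libraries, so its place there supports nothing. Klrk1 was at 1.70, 1.86 and 1.16 CPM at day 30 (log2 ratio 1.73 ± 0.35, edgeR adjusted p = 0.00699), and Il2rb at 6.11, 5.57 and 5.26 CPM (1.08 ± 0.23, edgeR adjusted p = 0.00866). For both genes day 30 and day 4 did not overlap. Ncr1 was at 0.682, 1.19 and 0.410 CPM (1.96 ± 0.47, edgeR adjusted p = 0.0174). Klrb1c, the receptor NK1.1, went from 0.328, 0.701 and 0.511 to 1.62, 1.89 and 0.990 CPM (1.52 ± 0.44, edgeR adjusted p = 0.0424). Eomes went from 0.459, 0.339 and 0.560 to 1.59, 1.28 and 0.845 CPM (1.45 ± 0.40, edgeR adjusted p = 0.0350). In IR_iEV_30d, Ncr1, Klrb1c, Klrk1 and Eomes were thus lowest in replicate 3, the library with most CD8 counts. Cd3g (6 counts) and Ptprc (5.58 CPM) were lowest in that library too, while Nkg7 was highest there (2.10 CPM).

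Cd2, an adhesion receptor of T and NK cells, had 3, 4 and 3 counts at day 4 and 28, 25 and 13 at day 30 (log2 ratio 2.82 ± 0.69, edgeR adjusted p = 0.0193). Il7r, the interleukin 7 receptor that sustains resting T cells, went from 0.295, 0.181 and 0.0974 to 1.08, 0.449 and 0.773 CPM (2.02 ± 0.54, edgeR adjusted p = 0.0282). Trac had 1, 0 and 2 counts at day 4, and its summed level at day 30 was 13.97 times higher (95% exact counting interval 4.44 to 70.6, edgeR adjusted p = 0.0478). Icos, a costimulator of activated T cells, had 0 counts at day 4 and 5, 8 and 13 at day 30, and was at least 9.31-fold higher against a floor of 3 counts over the group. In a fit with no low-count filter Icos passed (edgeR adjusted p = 0.0338), and Trac no longer did (0.106). Gzmb was not among the called genes, at a log2 ratio of -0.05 ± 0.35 (edgeR adjusted p = 0.952). With the sublingual and adipose covariates none of the 8 calls held (adjusted p from 0.127 to 0.812), and without the 6 libraries, which leaves 1 IR_iEV_4d and 2 IR_iEV_30d libraries, only that of Il2rb did. The calls of Eomes and Trac were lost with a replicate block (0.0574 and 0.0699), those of Eomes and Klrb1c with limma-voom (0.0526 and 0.0809), and those of Eomes, Il7r, Klrb1c and Ncr1 with the 2 groups fitted alone (0.0847 to 0.0898). Leaving out 1 library (adjusted p from 0.0528 to 0.142) ended the call of Trac for each of the 6 libraries, of Cd2 for all but IR_iEV_30d replicate 3, of Il7r for all but IR_iEV_30d replicate 2 and IR_iEV_4d replicate 1, of Eomes for replicates 1 and 2 of either group, of Klrb1c for IR_iEV_30d replicates 1 and 2 and IR_iEV_4d replicates 1 and 3, and of Ncr1 for IR_iEV_30d replicate 2 and IR_iEV_4d replicates 1 and 2.

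Whether the difference made by iEVs changed between the days was tested directly, as the day 30 ratio minus the day 4 ratio. None of the 27 genes passed (0% of all genes higher, 0.125% lower), with 0 by DESeq2 and limma-voom as well. DESeq2 gave no adjusted p for 8 of the genes here, so it could not call those. Unadjusted p values under 0.05 were found for Skap1 and Gzmb on the lower side (5.36% of all genes), and for 0 genes on the higher side (3.69%). For Gzmb the difference of log2 ratios was -1.71 ± 0.50 (edgeR adjusted p = 0.275), made of 0.60 at day 4 and -1.11 at day 30. For Skap1 it was -3.31 ± 1.21 (edgeR adjusted p = 0.412). IR_iEV_30d itself did not differ from NT past the threshold in any of the 27 genes (0.655% of all genes higher, 0.449% lower, and 0 of the 27 by DESeq2 and limma-voom), and Trac and Cxcr3 were the 2 with an unadjusted p under 0.05, both higher (6.56% of all genes, with 0 lower against 6.39%). In that contrast 3 of the 27 ratios were below 0 (50.6%). Trac passed the low-count filter only through its IR_iEV_30d libraries.

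Markers of some other leukocytes moved in the same contrasts, some of them against the sum of their list. Ptprc, which all leukocytes carry, was at 9.71 ± 1.01 CPM in NT, 5.86 ± 0.323 in IR_4d, 5.84 ± 1.99 in IR_iEV_4d, 18.7 ± 2.53 in IR_30d and 10.9 ± 4.60 in IR_iEV_30d (SD, n = 3). It was not called in IR_4d against NT (edgeR adjusted p = 0.329). From NT to IR_4d the macrophage list went from 268 ± 22.6 to 221 ± 14.4 CPM in sum. The pan-leukocyte list, mostly Lcp1, went from 248 ± 19.6 to 236 ± 8.42 CPM. The mast cell list, mostly Kit, went from 30.7 ± 1.53 to 38.8 ± 2.80 CPM. The plasma cell list, mostly Derl3, went from 142 ± 25.6 to 145 ± 15.8 CPM. The pan-leukocyte, mast cell and plasma cell sums follow their largest gene, so they do not speak for the other genes of their lists. Coro1a and Cd52 (log2 ratios -0.77 and -0.85), Cpa3 and Mcpt4 (-1.27 and -0.70) and Jchain (-2.81) were lower in IR_4d, none of them called. Within those lists, Lcp1, Laptm5, Kit, Derl3, Prdm1 and Tnfrsf17 had higher means in IR_4d. Of 10 tested genes on the dendritic cell list, 2 fell in IR_4d against NT (Itgax and Itgae, median log2 ratio of the list -1.90), and 5 rose between IR_4d and IR_30d. Itgae and Ccr7 are not confined to dendritic cells and may come from lymphocytes, so the list is no separate measure of dendritic cells. The dendritic list summed to 14.4 to 21.9 CPM in NT. In IR_4d it summed to 9.12 to 11.9 CPM and in IR_30d to 20.1 to 22.2 CPM, and its member Ccr7 was at 0 in all IR_4d libraries. Of 18 macrophage and monocyte genes, 2 fell in IR_4d (Ccr2 and Csf1r), and 12 rose in IR_30d against NT (3.19% of all genes), where 0 T and NK genes did. The macrophage list summed to 244 to 289 CPM in NT and 386 to 476 CPM in IR_30d. Of 17 pan-leukocyte genes, 2 fell in IR_4d against NT (Rac2 and Itgb2, edgeR adjusted p = 0.0133 and 0.0483, with 0.561% of all genes called lower), and 13 rose between IR_4d and IR_30d (4.81% of all genes). The part of these cells in the T and NK results was not tested. Lymph node and B cell markers were low: the 7 lymph node genes summed to 3.62 to 5.56 CPM over all libraries, mostly Ccl21a, with Glycam1 at 0 in NT, and the 8 B cell genes to 0.242 to 1.92 CPM.

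Set against Ptprc, the NK receptor genes overlapped between NT and IR_4d. The ratio of their summed CPM to that of Ptprc was 0.434 ± 0.121 in NT, 0.320 ± 0.0285 in IR_4d, 0.266 ± 0.0970 in IR_iEV_4d, 0.253 ± 0.0385 in IR_30d and 0.449 ± 0.101 in IR_iEV_30d (SD, n = 3). It ranged from 0.316 to 0.559 in NT and from 0.288 to 0.338 in IR_4d. The IR_30d libraries, at 0.208 to 0.276, lay below all NT and all IR_iEV_30d libraries (0.341 to 0.541). In IR_30d the NK receptor sum was near that of NT while Ptprc was higher, and in IR_iEV_30d the highest ratio came from replicate 3, whose Ptprc was 5.58 CPM against 13.7 and 13.3 in replicates 1 and 2.

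Other genes of the T cell receptor pathway, a list of 22 with 17 tested, were lower in 1 case in IR_4d against NT (Grap2, an adaptor) and higher in 3 in IR_30d against NT (Bcl10, Lcp2 and Fyb). Of all genes, 0.561% were called lower in IR_4d against NT and 3.19% higher in IR_30d against NT. Several genes of this pathway list serve myeloid cells as well. The list's median log2 ratios in these comparisons were -0.22 and 0.36. Between IR_4d and IR_30d 8 of the 17 rose (4.81% of all genes), and none passed in either comparison of iEVs with irradiation alone. Of 12 tested chemokines and cytokines that draw or sustain T and NK cells, 1 rose in IR_30d against NT (Cxcl16, the ligand of Cxcr6). Between IR_4d and IR_30d 3 of the 12 rose (Cxcl9, Cxcl10 and Cxcl16), against the same 4.81% of all genes. Of 14 tested checkpoint and other costimulatory genes, 0 were called in the 4 comparisons within a day, and their median in IR_4d against NT was -1.22. These lists share cells and libraries with the T and NK genes and were not fixed independently of them.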

How the data were processed

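The authors deposited 1 table of raw read counts, with gene symbols in rows and libraries in columns. Per the submitters' processing notes, TopHat, HTSeq, DESeq2 and the build GRCm39 were used, with no versions. How multiply mapped reads were treated, which annotation was used and whether counting used strand is not given in the sources used here. Counts of genes with near-identical relatives (Trbc2, granzymes, Klrb1c) or whose exons overlap another gene (Cd3e, Cd247, Skap1, Eomes, Gata3, Xcl1, Klrb1c, Lck, Cd27 and Themis) are therefore uncertain. Libraries were made from TRIzol RNA with the NEXTFLEX Rapid Directional kit, per the labels' protocols.

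From the counts, edgeR 4.0.16 (R 4.3.3) gave TMM scaling, a filterByExpr filter (minimum count 10, minimum total 15) and 1 quasi-likelihood model (15 libraries, 10 residual degrees of freedom). P-values were adjusted by Benjamini-Hochberg over 16042 genes in each of 9 comparisons. SE is the absolute log2 ratio over the square root of F. RPKM uses GRCm38 exon lengths. Intervals and floors cover counting error only. Scripts were tested on simulated data. The alternatives were DESeq2 1.42.0, limma-voom (limma 3.58.1), other scalings, other filters, the 2 groups alone, covariates, a replicate block, and leaving out libraries. The members and lists were chosen with earlier results of these data known. Genes given with every value are those called in any comparison and the 6 with the lowest p in each of 4 main comparisons. Replicate numbers did not pair the samples. No column was left out.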

Additional observations from a re-analysis of the deposited data

Results flagged for a closer look

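In 6 genes the irradiated glands differed between the days, by the direct test of IR_30d against IR_4d. No nontreated glands of known collection day stand beside it, so time alone and a changing irradiation effect cannot be told apart. The log2 difference was 2.32 for Lck, 1.34 for Klrk1, 3.42 for Skap1, 2.42 for Gzma, 1.65 for Gzmb and 1.41 for Il2rb, each with an edgeR adjusted p under the threshold and each higher in 3 of 3 IR_30d libraries than in any IR_4d library. The value for Skap1 rests on 3 counts in IR_4d and depends on the prior count. Skap1 would also not have passed the low-count filter without its IR_30d libraries. With 3 libraries a group, no single library was tested for lying apart.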

How the results depend on the processing

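Of 27 tested genes, 2 were called in IR_4d against NT, 6 in IR_30d against IR_4d, 8 in IR_iEV_30d against IR_iEV_4d and 3 in IR_iEV_4d against NT, and 0 in the other 5 comparisons, which stayed at 0 in every alternative run. For IR_4d against NT, DESeq2 called 5, limma-voom 1, a filter at a mean of 1 CPM 1, a fit of the 2 groups alone 1, the sublingual and adipose covariates 0 and the fit without the 6 sublingual-high libraries 1. For IR_30d against IR_4d, the filter gave 3 and leaving out those 6 libraries 1. For IR_iEV_30d against IR_iEV_4d, the filter gave 3, the 2 groups alone 4, the covariates 0 and leaving out the 6 libraries 1. For IR_iEV_4d against NT, DESeq2 gave 5, the 2 groups alone 0, the covariates 0 and leaving out the 6 libraries 1. Leaving out 1 library at a time gave 0 to 2, 3 to 5, 3 to 6 and 0 to 3, in the order of the opening sentence. The filter tests fewer genes, and otherwise the cause was not tested. The share of all genes called in each alternative is not given here, so these counts cannot be judged against it. The log2 ratio of Trac in IR_iEV_30d against IR_30d turned to -0.28 with the covariates. Over single genes, 512 of 623 alternative values kept direction and side of the threshold, 106 lost the threshold, 4 passed it and 1 reversed.

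Replicate numbers shared by the groups did not pair the samples: the correlation of deviations exceeded 0.1 in 5 of 30 pairs, and 0 libraries correlated best with their own number. With a replicate block, the counts were 3, 6, 6 and 2 in the same order, and 0 elsewhere. Depth limits the scarce genes: 11 of 38 fell below the filter. DESeq2 gave no adjusted p for 21 of the genes in IR_iEV_30d against IR_30d and 7 in IR_iEV_4d against IR_4d. For the difference of the iEV ratios between the days it gave none for 8.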
